A study of Homo sapiens with 8 samples.

Results

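The genes that encode the machinery which starts and carries out transcription were examined for N6-methyladenosine (m6A) peaks on their own transcripts. They were chosen by gene symbol: the subunits of RNA polymerases I, II and III (POLR1, POLR2 and POLR3), the Mediator subunits (MED), the TBP-associated factors (TAF) and the general factors GTF2 and GTF3, with antisense and pseudogene entries left out. This gave 166 peaks on 88 genes, of 22626 peaks on 12009 genes in the deposited list. The peaks fell on 27 polymerase genes, 26 MED genes, 19 TAF genes, 11 GTF2 genes and 5 GTF3 genes.

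The cells were HCT116, a human colorectal cancer line. One arm carried a control hairpin (shNC, genotype labelled WT) and the other a stable hairpin knockdown of ALKBH5 (shAL, sh_AL1 in the titles), an enzyme that removes m6A from RNA. Each arm had 2 input libraries of fragmented poly(A) RNA and 2 libraries of fragments bound by an anti-m6A antibody (IP), 8 libraries in all. Both arms were grown in the same medium, and the labels name 1 hairpin against ALKBH5 and do not say whether the replicates were separate cultures. The antibody, the fragment size and the sequencer are each given in conflicting ways by the labels, so which were used is uncertain. No per-library values were used, and hence neither a replicate error nor an n can be attached to any value, and the depth behind each peak is unknown.

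The list gives the following quantities, each the authors' own value for a peak. The enrichment is the linear ratio of IP to input. The log2 fold compares the arms, and its false discovery rate (FDR) was adjusted over all peaks of the list. A peak with an FDR under 0.05 is called. The sources used here do not name the numerator arm, so folds are described by sign, positive or negative, and neither sign is tied to the knockdown. They also leave unsaid if folds account for transcript abundance, so m6A and transcript level cannot be told apart.

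RNA polymerase II makes messenger RNA, polymerase I makes the large ribosomal RNA precursor, and polymerase III makes transfer RNA, 5S ribosomal RNA and other short RNAs. General factors place each polymerase at its start sites, TFIID through the TATA-binding protein TBP and its TAFs, and Mediator passes signals from gene-specific regulators to polymerase II. The m6A mark is written on the transcripts of many genes while they are made, often in long exons and near stop codons, and can alter their splicing, stability and translation.

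Peaks on transcription machinery genes were called about as often as peaks in general. Of the 166 peaks, 13 were called with a positive fold (7.83%, against 5.74% of all peaks) and 3 with a negative fold (1.81%, against 2.49%). In either direction 9.64% were called, where the share over all peaks was 8.23%. The 16 calls fell on 14 genes, 15.9% of the 88, beside 13.7% of all genes with a peak. The positive calls included peaks in POLR1D, POLR1G, POLR2C, MED7, MED8, MED9, GTF2A2, GTF2B, GTF2F1, GTF3A and GTF3C4, with 2 peaks in MED8. The negative calls were 2 peaks in POLR2A and 1 in TAF10. The median log2 fold was 0.26 (order-statistic 95% interval over peaks 0.11 to 0.45), where that of all peaks was 0.14, and the quartiles were -0.43 and 0.70. The median enrichment was 8.28-fold (95% interval 5.84 to 10.7), where that of all peaks was 10.1-fold. These intervals treat peaks as independent, although peaks of 1 gene share a transcript, and they hold no replicate error. With folds recentred on the median of all peaks, 10 positive and 3 negative calls were left here, and over all peaks the positive share of calls went from 69.7% to 53.1%.

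**Figure D1:**
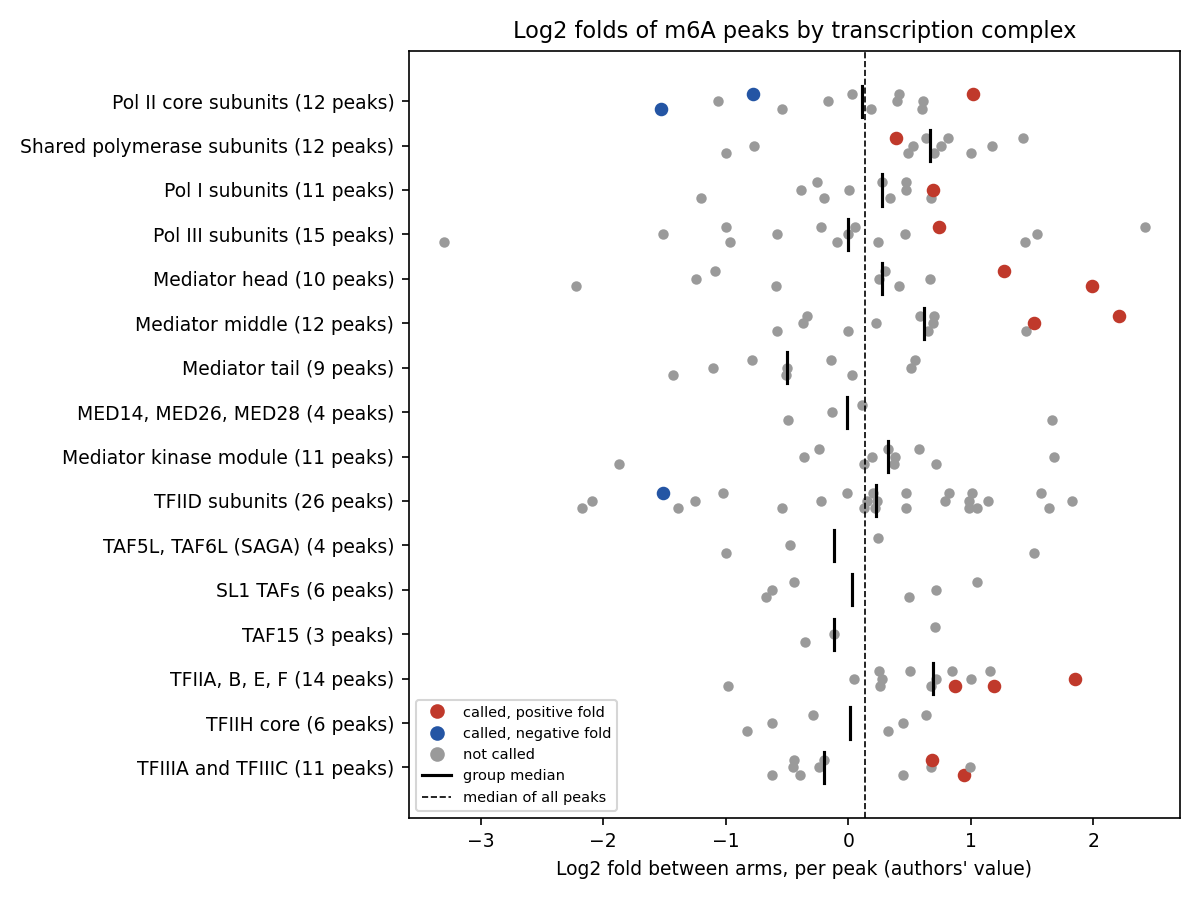
Log2 fold between the arms (x axis, authors' deposited values) for each of the 166 peaks, by complex (y axis). Red and blue points are called at an FDR under 0.05, grey ones are not, short bars are group medians and the dashed line is the median of all peaks (0.14). Called peaks lie among polymerase, head and middle Mediator, TFIIA, TFIIB, TFIIF, TFIIIA and TFIIIC genes, with 1 in TFIID.

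POLR2A (ENSG00000181222), which encodes the largest and catalytic subunit of polymerase II and carries its C-terminal repeat domain, had the smallest FDRs among these genes. Its 4 peaks split by position. The authors' deposited table gives the 2 upstream peaks, at chr17:7496304-7496786 and chr17:7509873-7511546 (GRCh38), log2 folds of 0.42 (FDR 0.430) and 0.19 (FDR 0.560). The 2 downstream ones, at chr17:7513448-7513658 and chr17:7513748-7514077, stood by the authors' deposited table at -0.77 (FDR 7.94e-15) and -1.53 (FDR 1e-35). Their centres lay 1063 and 704 bases from the annotated 3′ end of the gene. Neither shares a base with a peak of another gene. By the p of the difference they ranked 18 and 4 among the 9841 peaks with a negative fold. Both were weakly enriched, at 1.25-fold and 1.60-fold by the authors' deposited table, and 0.040% and 0.72% of all peaks had a lower enrichment. The upstream peak at chr17:7509873-7511546 was enriched 11.3-fold by the authors' deposited table. The downstream peaks thus carried the calls while the most enriched POLR2A peak did not, and the difference between peaks of the gene was not tested.

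Other polymerase II genes gave 1 call in 8 peaks, where 8.23% of all peaks were called. POLR2C, a subunit of the assembly platform of the enzyme, had a called peak at chr16:57470996-57471175 with a log2 fold of 1.02 (FDR 0.0347) and an enrichment of 1.47-fold by the authors' deposited table. Its other peak stood at 0.03. The POLR2C call was lost with recentred folds (FDR 0.08). Among the peaks that were not called, the authors' deposited table gives the second largest subunit POLR2B -0.54, POLR2D 0.60 and -0.17, POLR2I 0.61, POLR2M 0.40 and POLR2J -1.06. POLR2M encodes a polymerase II-associated protein, not a core subunit, and its peak shares bases with one of GCOM1 on the same strand. The POLR2D peak at -0.17 shares bases with one of RPS26P19 on the same strand. The POLR2I peak shares bases with one of an unnamed gene on the opposite strand. POLR2J has near-identical copies, POLR2J2 and POLR2J3, so reads of its peak may belong to more than 1 gene.

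POLR1D, a subunit that polymerases I and III share, had the strongest peak of all these genes. At chr13:27621851-27623450, across 4 exon blocks and 870 exonic bases, the peak had a log10 p of -1890 and an enrichment of 10.9-fold by the authors' deposited table. Its fold was small, a log2 of 0.39 (FDR 4.79e-05) by the authors' deposited table, and the 2 other POLR1D peaks stood at -1.0 and 0.53 and were not called. The called peak covers an annotated transcription start of the gene. Sequence around starts was at hand from RefSeq (GRCh38.p14) for 69 of the 88 genes, so bases 21 to 50 of the transcript were read wherever a peak of the gene covered all of them. That was the case for 9 genes, and 4 of them held the letters GGAC, the common core of m6A sites, on the transcribed strand. Of all 35116 start windows, 12.1% hold GGAC on that strand and 21.5% on either strand. In all 4 genes the peak covers the motif. The MED27 window, at chr9:132079818-132079847 (minus strand), is not shown. The other 3 are shown with GGAC in capitals. They lie at chr13:27621912-27621941 (plus strand), chr5:141320735-141320764 and chr1:109075954-109075983 (both minus strand).
POLR1D: ccgcgcctcgcgctatgGGACagagccccc
TAF7: ggcgacccGGACggagggccggcgaggtgc
TAF13: agccggcaGGACgctgtgagttggcgtgct
Of their peaks only the POLR1D one was called. The TAF7 start lies in 2 overlapping listed peaks, which stood at 0.20 and 0.24 by the authors' deposited table and the TAF13 peak stood at -0.01. A match is a description of these letters and does not show which base is methylated.

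The remaining subunits shared between polymerases had mostly positive folds, none of them called, where 8.23% of all peaks were. In this group, POLR1D included, 10 of 12 peaks were positive, with a median of 0.67, where 55.3% of all peaks were positive. POLR2F, POLR2L, POLR2K, POLR1C and POLR2H stood between 0.49 and 1.43 by the authors' deposited table. POLR2E had 2 peaks at 0.70 and 0.76 and 1 at -0.77, by the authors' deposited table. The smallest FDR among these uncalled peaks was 0.180, for POLR2F at 1.43.

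Polymerase I genes carried 11 peaks, and 1 was called (9.09%, beside 8.23% of all peaks). POLR1G, which with POLR1E forms a polymerase I-specific subcomplex, had a log2 fold of 0.69 (FDR 0.0380) at chr19:45408766-45409692 by the authors' deposited table. That peak overlaps one of the DNA repair gene ERCC1 on the opposite strand, listed by the authors' deposited table at 0.47 (FDR 0.0933), so which gene it belongs to is uncertain, and the call was lost with recentred folds (FDR 0.117). The other POLR1G peak, at 0.47, overlaps a second ERCC1 peak. POLR1A, the largest subunit, had 6 peaks and none was called. From the 3′-most upstream, their log2 folds by the authors' deposited table were -0.39, -1.20, -0.20, 0.68, 0.28 and 0.47. The 3 peaks nearest the 3′ end were negative and the other 3 positive, with FDRs between 0.326 and 0.678. Their enrichments ranged from 5.32-fold to 30.4-fold by the authors' deposited table. POLR1B, POLR1E and POLR1F stood at -0.26, 0.34 and 0.01 by the authors' deposited table.

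The 15 polymerase III peaks had a median fold of 0. Both the largest positive and the largest negative fold among all uncalled peaks of these genes were in the catalytic core of polymerase III. The authors' deposited table gives POLR3A 2.42 at its 5′ end (FDR 0.479) and -0.97 near its 3′ end (FDR 0.304), and POLR3B -3.30 (FDR 0.136) and -0.59 (FDR 0.714). The log10 p of these 4 peaks themselves lay between -9.59 and -2.93. POLR3G, the alternative of POLR3GL in the enzyme, had a peak at 1.44 just past the threshold (FDR 0.0589) by the authors' deposited table, and its other peak was listed at 0. The 2 POLR3GL peaks stood at 0.25 and 0.46.

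**Figure D2:**
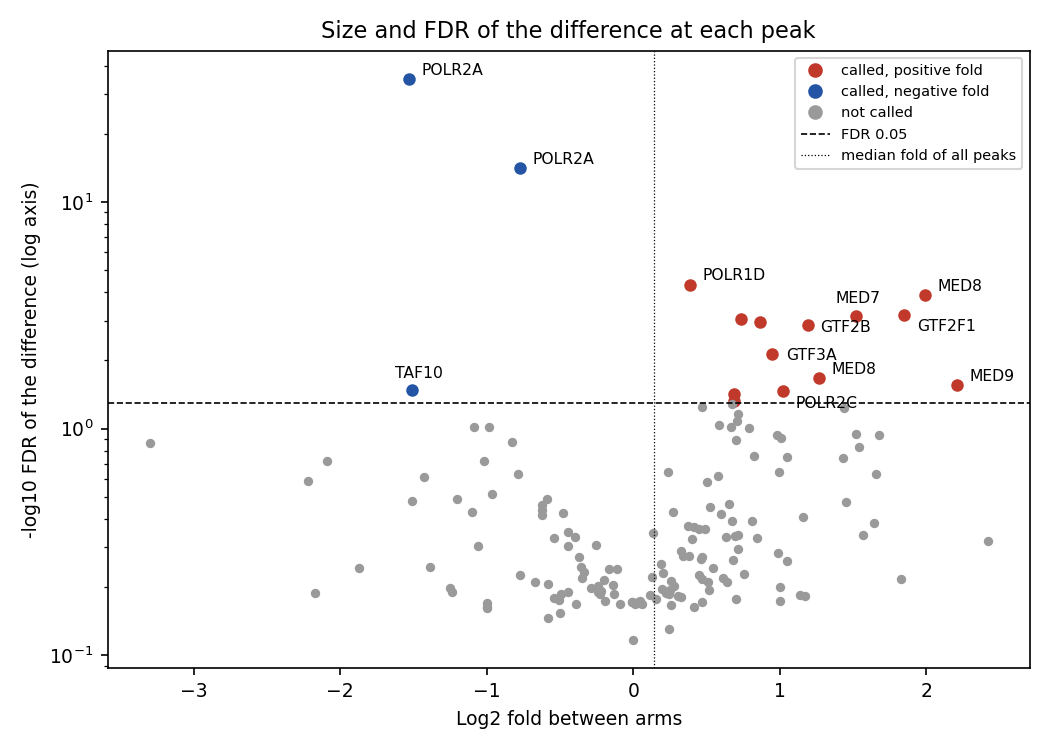
Log2 fold between the arms (x axis) against the -log10 of its FDR (y axis, log scale) for the 166 peaks, both from the authors' deposited table. Points above the dashed line are called; the 2 POLR2A peaks at -0.77 and -1.53 stand above all others, and the dotted line is the median fold of all peaks.

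The general factors TFIIA, TFIIB, TFIIE and TFIIF assemble with polymerase II before initiation. On their genes together, 13 of 14 peaks had a positive fold, beside 55.3% of all peaks, with a median of 0.70. Of the 14, 3 were called (21.4%, beside 8.23% of all peaks). These shares were not tested. GTF2B, whose product TFIIB joins polymerase II to the promoter-bound factors, had its 1 peak called at chr1:88853019-88858724, with a log2 fold of 1.19 (FDR 0.00138) by the authors' deposited table. GTF2A2, the small subunit of TFIIA, had a called peak at chr15:59638810-59642207 with a log2 fold of 0.87 (FDR 0.00110) by the authors' deposited table. The GTF2F1 gene of the large TFIIF subunit had 4 peaks. The called one, 5′-most at chr19:6389449-6391923, stood at 1.85 (FDR 0.000661) by the authors' deposited table, the next at -0.98 (FDR 0.0955), and the 2 nearest the 3′ end at 0.27 and 0.72. That -0.98 was the 1 negative fold of the 14. The called GTF2F1 peak was enriched 2.39-fold by the authors' deposited table. GTF2E1, of TFIIE, had the most enriched peak of all these genes, 61.9-fold, at 1.16 without a call (FDR 0.393) by the authors' deposited table. TFIIH core genes had 6 peaks, 3 of each sign, between -0.83 for GTF2H3 and 0.64 for GTF2H4 by the authors' deposited table. None of the 6 was called, where 8.23% of all peaks were.

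TFIID genes carried 26 peaks on 13 genes, and 1 was called (3.85%, beside 8.23% of all peaks). TAF10, a subunit that TFIID shares with the coactivator SAGA, had a called peak at chr11:6611653-6611863, centred 458 bases from the 5′ end, with a log2 fold of -1.51 (FDR 0.0331) by the authors' deposited table. It overlaps a peak of an unnamed gene on the same strand, also at -1.51 (FDR 0.0363). With p doubled and adjusted again the TAF10 call was lost (FDR 0.0664). The other 2 TAF10 peaks stood at 0.13, with an enrichment of 1.47-fold, and 0.98 by the authors' deposited table, and the one at 0.98 overlaps a peak of the kinase gene ILK on the opposite strand. The one at 0.13 overlaps a peak of an unnamed gene on the same strand. TAF12 came near the threshold at 0.47 (FDR 0.0575) with a log10 p of the peak of -445 by the authors' deposited table. TAF3, which reads trimethylated histone H3, spanned 0.82, -1.02 and -2.09 over 3 strongly enriched peaks (19.0-fold to 32.1-fold), with FDRs from 0.174 to 0.192 by the authors' deposited table. TAF4 had 1.57 and 1.64 beside -0.54, and TAF5 -2.17 and -1.25, all uncalled by the authors' deposited table. The 3 TAF2 peaks stood at 0.15, 1.05 and 1.01, with the strongest of them, at the 5′ end, at an FDR of 0.124 by the authors' deposited table. TAF1L, an intronless copy of TAF1, stood at 1.83 (FDR 0.608) by the authors' deposited table, and its reads may come from TAF1, which had no peak among the rows analysed here. TAF4B had the second most enriched peak, 57.4-fold, at 1.14 (FDR 0.655), and TAF4 the third, 47.8-fold, by the authors' deposited table. The TAF9 peak was among the 5 least enriched of all these genes, at 1.86-fold.

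The TAFs outside TFIID had few peaks and no called one, where 8.23% of all peaks were called, and this was not tested. TAF1B, TAF1C and TAF1D, of the polymerase I factor SL1, had 6 peaks from -0.67 to 1.05 by the authors' deposited table. TAF5L and TAF6L, of SAGA, had 4 peaks from -1.0 to 1.52, the highest on a TAF5L peak enriched 42.8-fold (FDR 0.114) by the authors' deposited table. TAF15, an RNA-binding protein of the FET family, had 0.71 (FDR 0.0832), -0.35 and -0.11 by the authors' deposited table.

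Mediator genes had 4 called peaks of 46 (8.70%, near the 8.23% of all peaks). All 4 were positive, as were 69.7% of all calls of the list. They lay in the head and middle modules, which contact polymerase II. Both peaks of the head gene MED8 were called, at chr1:43385968-43386235 with a log2 fold of 1.99 (FDR 0.000126) and at chr1:43384719-43385016 with 1.27 (FDR 0.0214), by the authors' deposited table. The MED8 peaks were enriched 2.66-fold and 4.19-fold, in that order, where the median of all peaks was 10.1-fold. MED8 was, beside POLR2A, the other gene with 2 called peaks. MED7, of the middle module, had its 1 peak called at chr5:157138498-157142465, at 1.52 (FDR 0.000708), and it was the most enriched of the 16 called peaks, at 34.6-fold by the authors' deposited table. MED9, also of the middle module, had the largest called fold, 2.21 (FDR 0.0275), on a weak peak at chr17:17492772-17493071 with a log10 p of -4.26 and an enrichment of 2.90-fold by the authors' deposited table. Its other peak stood at 0.69, and the MED9 call was lost with p doubled and adjusted again (FDR 0.055). Uncalled head and middle peaks ranged from -2.22, for MED20 (FDR 0.260), to 1.45, for MED1 (FDR 0.336), by the authors' deposited table. MED1, the subunit that binds nuclear receptors, had 3 peaks, at 1.45, 0.70 and -0.33 by the authors' deposited table.

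Tail genes, whose products meet gene-specific activators, had the lowest median of the Mediator modules, -0.50 over 9 peaks. None of the 9 was called, where 8.23% of all peaks were. MED16 stood at -1.10 and -1.43, MED25 at -0.79 and 0.54, MED24 at -0.51 and MED23 at -0.50 by the authors' deposited table. MED27 stood at -0.14 and 0.51 and MED29 at 0.03, and the smallest FDR of the 9 peaks was 0.234. Both MED25 peaks overlap peaks of PTOV1-AS1 on the opposite strand. The difference between modules was not tested. Of the kinase module, MED13 and MED13L, which join the kinase to the core, carried 5 and 6 peaks. These had no call either, beside 8.23% of all peaks. The authors' deposited table gives the MED13 peaks, from the 5′ end, log2 folds of 0.20, 0.58, 0.38, -0.24 and -0.36. The MED13L peaks, likewise from the 5′ end, stood at 0.72, 0.37, 0.13, 1.68, 0.32 and -1.87 by the authors' deposited table. The first of these had the smallest FDR, 0.0692. In both genes the peak nearest the 3′ end was the most negative, with FDRs of 0.570 for MED13 and 0.573 for MED13L. That MED13L peak was weak, with a log10 p of -4.24, and the order along the genes was not tested. MED14, the scaffold of the complex, had 1 peak, at -0.49, and MED28 1, at 0.11, by the authors' deposited table. The 2 MED26 peaks stood at -0.13 and 1.66 (FDR 0.234) by the authors' deposited table. Both share bases with a peak of an unnamed gene on the same strand, listed at 0.40 (FDR 0.607).

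Among polymerase III factors, 2 of 11 peaks were called (18.2%, beside 8.23% of all peaks), a share that was not tested. GTF3A, which encodes the 5S RNA gene factor TFIIIA, had a called peak at chr13:27434858-27435823, 314 bases from the 3′ end, at 0.95 (FDR 0.00724) by the authors' deposited table. It overlaps a peak of MTIF3 on the opposite strand, which stood at 0.36 (FDR 0.426), so this call is uncertain between the 2 genes. GTF3C4, a TFIIIC subunit, had a called peak at chr9:132677984-132683659 with 1917 exonic bases, an enrichment of 31.6-fold and a log2 fold of 0.69 (FDR 0.0468) by the authors' deposited table. Its second peak stood at -0.24, and the GTF3C4 call was lost with recentred folds (FDR 0.133). GTF3C5 had 0.998 and 0.68, the latter just past the threshold (FDR 0.0525), by the authors' deposited table. All 4 peaks of GTF3C1, the largest TFIIIC subunit, were negative and uncalled, at -0.40, -0.62, -0.44 and -0.45 from the 3′ end upstream by the authors' deposited table. The GTF3C2 peak was at -0.20.

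**Figure D3:**
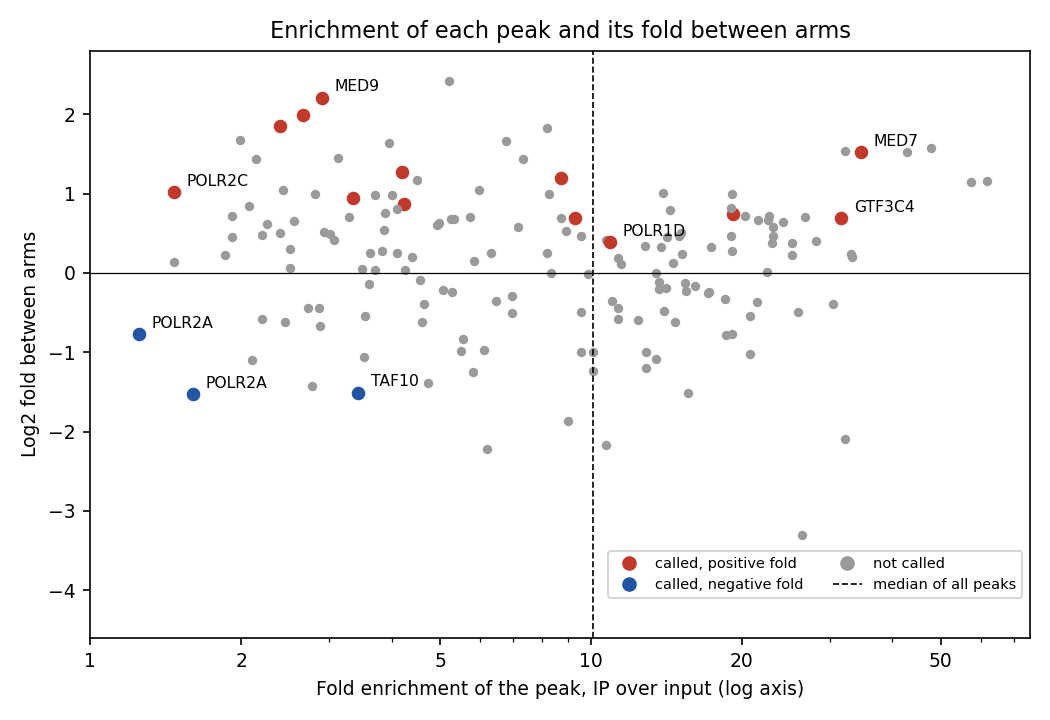
Enrichment of IP over input (x axis, log scale) against the log2 fold between the arms (y axis) for the 166 peaks, from the authors' deposited table. Called peaks (red and blue) reach from 1.25-fold to 34.6-fold, and the dashed line is the median enrichment of all peaks, 10.1-fold.

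Called peaks of these genes had a lower median enrichment, 3.81-fold, than the 150 uncalled ones, 8.82-fold, and over all called peaks of the list it was 5.93-fold. This difference was not tested. Fold size went down as the peak itself grew stronger. Among 45 weak peaks (log10 p of the peak above -5) the median absolute log2 fold was 0.99 and 2 were called. Among 81 peaks between -5 and -50 it was 0.60 with 7 called, and among 40 strong peaks (under -50) it was 0.46 with 7 called. Over all peaks of the list the 3 classes had medians of 0.85, 0.68 and 0.40, and 1.28%, 7.88% and 23.0% were called, where the shares here were 4.44%, 8.64% and 17.5%. The folds of 2.42 for POLR3A and -2.17 for TAF5 by the authors' deposited table were on weak peaks and uncalled.

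Peaks of these genes were more often in genes with several peaks. Of the 88 genes, 37 (42.0%) had 1 peak, 35 had 2, 10 had 3 and 6 had 4 or more, where 51.6% of all genes had 1. POLR1A and MED13L with 6 and MED13 with 5 had the most. Of the 51 genes with at least 2 peaks, 28 (54.9%) had folds of both signs, beside 59.6% of all such genes. The widest range within 1 gene was 3.55 in MED13L, followed by 3.39 in POLR3A and 2.91 in TAF3. Exon junctions were spanned by 73 of the 166 peaks (44.0%, beside 30.4% of all), and the median exonic length was 345 bases, beside 300 bases.

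By the RefSeq gene bounds 165 of the 166 peaks could be placed. Of these, 44 had their centre at most 1000 bases from the annotated 3′ end (26.7%, 95% interval 20.1 to 34.1 by the exact binomial method), where 22.2% of all placed peaks did. Within 1000 bases of the 5′ end were 14 (8.48%), beside 9.58% of all. Of the 16 called peaks 7 lay near the 3′ end, in POLR2A, POLR2C, MED8, MED9, GTF2A2, GTF2B and GTF3A, and 1 near the 5′ end, in TAF10. Near the 3′ end lay 33.7% of the 1686 called peaks of the list that could be placed. Exons, introns and untranslated parts were not distinguished, since bounds of coding sequence were not used here.

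**Figure D4:**
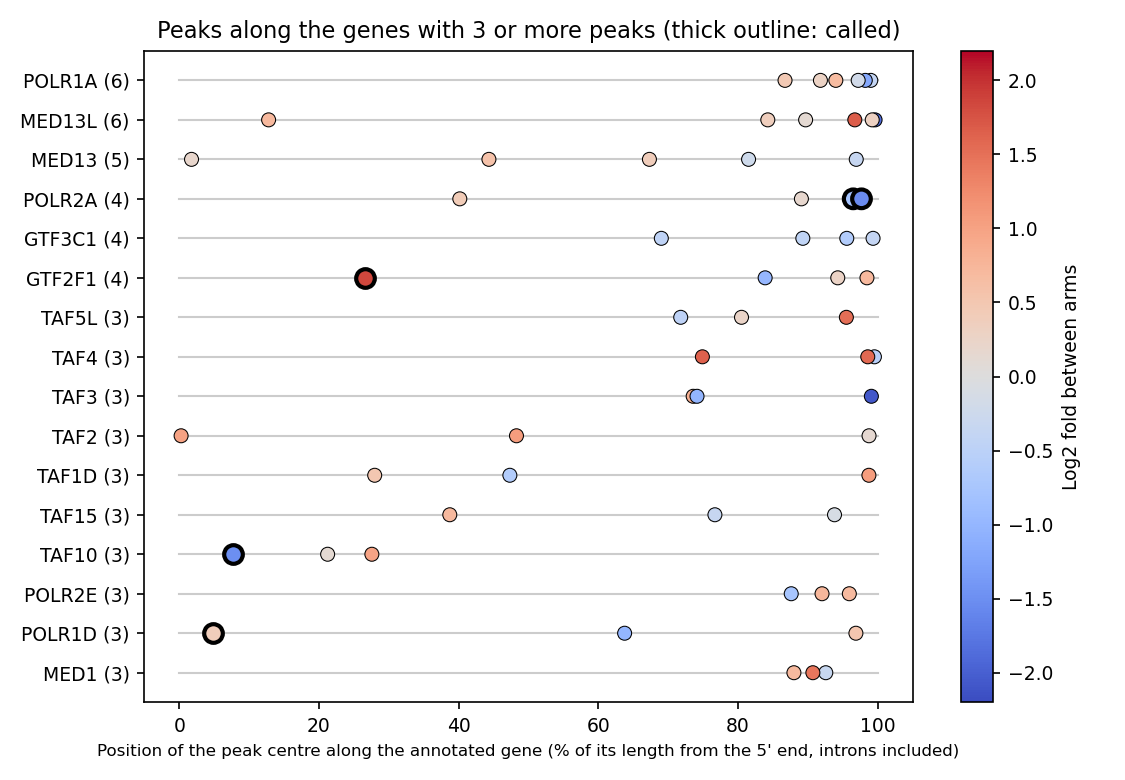
Peak centres along the 16 genes with 3 or more peaks (x axis, percent of the annotated gene length from the 5′ end), coloured by the authors' log2 fold between the arms, with called peaks in a thick outline. The 2 called POLR2A peaks lie at 96.5% and 97.7%, and the called peaks of POLR1D, TAF10 and GTF2F1 at 4.87%, 7.73% and 26.6%.

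In the RefSeq annotation 113 protein-coding genes carry these names, leaving aside 13 TAF11L copies, and 25 of them had no peak among the rows analysed here. These were POLR1H, POLR2G, POLR2J2, POLR2J3, POLR3C, POLR3K, MED12, MED12L, MED15, MED30, TAF1, TAF1A, TAF6, TAF7L, TAF9B, GTF2A1L, GTF2H2, GTF2H2C, GTF2H2C_2, GTF3C3, GTF3C6 and the 4 TFII-I family genes GTF2I, GTF2IRD1, GTF2IRD2 and GTF2IRD2B. A gene with no peak may be unmethylated, weakly expressed or not analysed here, which cannot be told apart.

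Partners of these complexes that go by other names were called at a like rate. Of 73 such genes, 64 had 146 peaks, and 6 peaks were called with a positive and 3 with a negative fold (6.16% in all, beside 8.23% of all peaks). The pausing and elongation genes held 79 of these peaks and 7 of the 9 calls, so 8.86% of their peaks were called, near the 8.23% of all peaks. SUPT4H1, which with SUPT5H forms the pausing and elongation factor DSIF, had 2 called peaks at 0.75 (FDR 6.03e-09) and 1.22 (FDR 0.00575) by the authors' deposited table, and both share bases with peaks of other genes. NELFE and NELFB, of the negative elongation factor that holds polymerase II near its start sites, stood at -1.33 (FDR 5.50e-07) and -0.97 (FDR 0.00417) by the authors' deposited table. Called peaks of the elongation factor gene SUPT6H stood at 1.24, of AFF1 at 1.60, and of the kinase gene CDK9 at 0.35 by the authors' deposited table. Uncalled peaks stood at 0.18 and -0.10 for SUPT6H, at 0.18, 1.22 and -0.77 for AFF1, and at 0.69 for CDK9. The calls of AFF1, CDK9 and UBTF were lost with p doubled and adjusted again. Of polymerase II assembly and phosphatase genes, SSU72 had a called peak at 1.27 (FDR 0.00155) by the authors' deposited table. Its uncalled peaks stood at -0.13, -0.22 and 0.82. Of polymerase I factors, UBTF had a called peak at -4.58 (FDR 0.0257) by the authors' deposited table. That peak was weak, with a log10 p of -4.02, and the other UBTF peak stood at -0.22 (FDR 0.643). Of 22 peaks on TBP, TFIIIB and SNAPc genes 0 were called, and likewise 0 of 11 on CDK7, CDK8 and the other TFIIH and Mediator kinase partners.

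Of the markers that would check the line, 5 of 9 colorectal epithelial genes had a peak, among them CDX2, EPCAM and KRT8, beside 1 of 6 fibroblast genes and 1 of 5 leukocyte genes. ALKBH5 itself had 3 peaks with log2 folds of -1.43, -0.93 and -1.25 by the authors' deposited table, none of them called. A peak does not measure a transcript's level, so neither the cell type nor the knockdown is checked by these values.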

How the data were processed

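m6A IP and input libraries of HCT116 cells (8 libraries, 2 in each of 4 groups by title) were summarised by the authors in 1 deposited peak list. Tools were BWA 0.7.12 and HOMER 4.9.1 with the GRCh38 build, per the submitters' processing notes. The peak caller and the test behind the comparison are unnamed: not given in the sources used here. Per the file headers, the deposited p-value of a peak is also given as a log10 score, the enrichment is a linear ratio, and the comparison of the arms is a log2 fold with its p and FDR as log10 scores. It is not stated if that p takes the spread between replicates into account, so a call is not read as reproducible between replicates. A planned count model (edgeR) needs values per library and was not run.

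The members, lists and rules were chosen with earlier results of these data known. Named were all called member peaks, the 5 largest uncalled folds of each sign, the 5 most and least enriched peaks, the 3 genes with most peaks, the largest subunits and kinase module genes, and called partners; others illustrate a group and were chosen after their values were seen. Starts were converted to 1-based positions. Positions use the GRCh38.p14 RefSeq gene table by symbol and the middle exonic base of a peak. No set test was made. Recentred calls took a standard error from fold and p, read as one-sided, where p was under 0.3, and elsewhere the median of peaks of like strength. That code was tested on simulated data. Python 3.11.15, pandas 2.3.3 and scipy 1.17.1 were used. Some results that the counts include are not reported here by name.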

Additional observations from a re-analysis of the deposited data

How the results depend on the processing

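Without peaks that share a base with another gene's peak the median log2 fold was 0.24. With peaks of p at most 1e-10 it was 0.30, and both lie within its interval. With folds recentred on the median of all peaks (0.14) it was 0.12, a shift fixed by that subtraction. Settings that change only p or the FDR leave this median as it was. The called counts of 13 positive and 3 negative peaks became 8 and 2 at an FDR of 0.01, 34 and 11 at an unadjusted p of 0.05, 9 and 2 with p doubled and adjusted again, and 10 and 3 with folds recentred. Over all peaks recentring gave 934 positive and 826 negative calls, so the positive share went from 69.7% to 53.1%, while here it went from 81.25% to 76.9%. The calls of POLR2C, POLR1G and GTF3C4 were lost under all 3 of the stricter FDR, doubled p and recentring, those of MED9 and TAF10 under the first 2, and that of the second MED8 peak (1.27) under the stricter FDR. No sign of a called peak reversed, and none could. Recentring moves each fold by 0.14, less than the called fold smallest in size (0.39, POLR1D), and the other settings leave folds unchanged. Without peaks that share a base with another gene's peak (22 of 166, 4 of them called) 10 positive and 2 negative calls were left. Not all of the 22 are named as overlapping above. The median enrichment was 13.2-fold with peaks of p at most 1e-10. The share near the 3′ end was 13.9% with a window of 500 bases and 44.8% with 2000 bases. No paired analysis was possible because the table holds no values per library, and leaving out replicates was not run for the same reason. Depth behind the peaks is unknown, so the precision of a fold is not known beyond the authors' FDR.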

Other observations

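Some values in the list repeat. Of the 93 member peaks with an enrichment under 10-fold, 12 (12.9%) had a value that was a whole multiple of 0.5625 to the digits given, beside 2099 of 11099 (18.9%) over all peaks, a spacing chosen after the values were seen. The log2 folds of 9 member peaks were those of ratios of whole numbers up to 4, beside 5.83% of all peaks. These were POLR3G at 0, POLR1D, POLR3F and TAF6L at -1.0, POLR2F and GTF2A2 at 1.0, MED19 and POLR3B at -0.59 and MED17 at 0.42 in the authors' deposited table. For these 9 peaks the log10 p was between -5.41 and -2.41, and none was called.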
